A study of Mus musculus with 40 samples.

Results

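The genes described here are *Crabp2*, *Gfra1*, *Ntrk3*, *Slc17a6*, *Muc13*, *Prok1*, *Gpr55* and *Lad1*, 8 of the 21950 genes in the expression table. They were selected on large changes when iTregs, Tregs induced in vitro from naive T cells, were restimulated, or when restimulation was combined with an inhibitor of calcium entry or of calcineurin. Their values in iTregs are therefore given as a description, without a test. The Tconv and tTreg libraries were not used for the selection, and there the genes were tested. *Lad1* differs from the other 7. Its rise in activated Tconvs was known from earlier results of these data, so its values on activation are a description too. Its test between resting tTregs and resting Tconvs uses the same resting Tconv libraries and is not read as support. Its 4 iTreg groups overlapped, so that it cannot be called inhibitor-sensitive.

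RNA-seq had been made from splenic CD4 T cells of mice on a C57BL/6 background that carry a Foxp3 fluorescent reporter, in 8 groups of 3 libraries. Resting and activated Tconvs and resting and activated tTregs, which the sample labels call nTregs, came from mice of 2 to 4 months. iTregs came from mice of 6 weeks: naive cells without the Foxp3 reporter signal were cultured for 4 days with antibodies to CD3 and CD28, 2 ng per ml TGF-β and 200 U per ml IL-2, sorted on the reporter and rested for 1 day. They were profiled at rest, after restimulation through CD3 and CD28, and after restimulation with an ORAI inhibitor (CM-4620 in the methods of the study) or with CsA. CM-4620 blocks the ORAI channels that carry store-operated calcium entry, and CsA blocks the phosphatase calcineurin, which releases NFAT to the nucleus. Age, culture and cell type differed together between iTregs and the other cells, so these cannot be told apart in any level set across them. How long cells were activated or restimulated before the libraries were made, and whether replicates came from separate mice or cultures, is not given in the sources used here. The p-values below measure only the spread between these libraries, which may be technical.

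Values are normalized counts, that is, gene counts divided by 1 size factor per library. The 24 libraries held 5256800 to 15685234 reads on genes, and 3 reads, the smallest count taken here as different from absence, were worth 2.12 to 5.45 normalized counts. The lowest depth was that of an activated tTreg library. All 8 T cell markers checked, among them *Cd3e* and *Cd4*, were at 10 or more normalized counts in every library. The summed level of 5 Treg markers (*Foxp3*, *Il2ra*, *Ctla4*, *Ikzf2* and *Nrp1*) ranged from 1102 to 1128 in resting and from 5321 to 5576 in activated Tconvs. It ranged from 29485 to 32360 in resting tTregs and from 13518 to 17410 in resting iTregs. *Il2ra* made up most of the sum in resting iTregs and activated Tconvs, at 11560 and 4351 on average. *Foxp3* averaged 1280 in resting iTregs, 7537 in resting tTregs and 33.8 in activated Tconvs. Resting iTregs held *Ctla4* at 2144, against 221 in resting Tconvs. Their *Ikzf2* and *Nrp1*, at 167 and 320, were below the 195 and 653 of resting Tconvs. In bulk RNA, fewer cells expressing a gene and less RNA per cell cannot be told apart.

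Most of these genes are known from tissues other than T cells. *Crabp2* encodes a protein that carries retinoic acid to its nuclear receptors, and retinoic acid with TGF-β favours the formation of peripheral Tregs. *Gfra1* is the co-receptor that binds GDNF and signals with the kinase Ret, *Ntrk3* is the receptor kinase of neurotrophin-3, and *Slc17a6* is the vesicular glutamate transporter VGLUT2. *Muc13* is a transmembrane mucin of epithelial surfaces, *Prok1* is a secreted ligand of the prokineticin receptors, *Gpr55* is a receptor for lysophosphatidylinositol, and *Lad1* encodes ladinin, an anchoring filament protein of basement membranes.

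In a GENCODE release of GRCm38 older than the one used for counting, *Crabp2* lies at chr3:87948666-87953376 on the plus strand, *Slc17a6* at chr7:51622006-51671119 (plus), *Muc13* at chr16:33794037-33819934 (plus) and *Lad1* at chr1:135818598-135833342 (plus). *Gfra1* lies at chr19:58235604-58455909 (minus), *Ntrk3* at chr7:78175959-78738012 (minus), *Prok1* at chr3:107232797-107239707 (minus) and *Gpr55* at chr1:85938318-85961007 (minus). Reads were counted on the exons of these genes. *Crabp2*, *Ntrk3*, *Slc17a6* and *Lad1* share no exon base with another gene. The libraries do not mark strand, so reads of a gene and of a gene on its other strand cannot be told apart, which touches 7.597% of the exon bases of *Gfra1*, 6.06% of those of *Muc13*, 1.91% of those of *Gpr55* and 35.4% of those of *Prok1*.

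NFAT, the factor that calcineurin activates, recognizes the core GGAAA and often binds beside AP-1, for which the letters TGANTCA were searched. RefSeq start sites on GRCm38.p6 were at hand for 6 of the 8 genes, all but *Crabp2* and *Ntrk3*. The 250 bases before 1 start of each are printed for 1 gene that was higher and 2 that were lower in restimulated iTregs, since both inhibitors act upstream of NFAT, and only where the window holds no exon. They run 5′ to 3′ on the strand of the gene, with matches of either motif on either strand in capitals.
Slc17a6, chr7:51621580-51621829, plus strand: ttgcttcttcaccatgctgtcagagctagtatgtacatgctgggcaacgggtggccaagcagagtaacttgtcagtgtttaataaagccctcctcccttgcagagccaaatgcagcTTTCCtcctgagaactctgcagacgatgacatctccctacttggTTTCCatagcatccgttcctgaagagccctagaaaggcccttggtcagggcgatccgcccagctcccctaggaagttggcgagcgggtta
Muc13, chr16:33793787-33794036, plus strand: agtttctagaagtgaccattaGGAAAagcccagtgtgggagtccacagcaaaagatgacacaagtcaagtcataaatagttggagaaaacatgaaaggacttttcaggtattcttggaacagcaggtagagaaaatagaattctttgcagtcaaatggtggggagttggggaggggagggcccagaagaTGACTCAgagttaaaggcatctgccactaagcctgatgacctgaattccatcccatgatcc
Prok1, chr3:107239708-107239957, minus strand: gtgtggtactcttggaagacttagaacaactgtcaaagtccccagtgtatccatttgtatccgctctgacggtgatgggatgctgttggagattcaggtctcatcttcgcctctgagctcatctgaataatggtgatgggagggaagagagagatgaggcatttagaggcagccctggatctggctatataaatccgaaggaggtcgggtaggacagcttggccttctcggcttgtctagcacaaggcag
The *Slc17a6* window held 2 matches of the NFAT core and 0 of AP-1. The *Muc13* window held 1 match of each, sharing 0 bases, and the *Prok1* window held 0 of either. *Slc17a6*, *Muc13* and *Prok1* each have a second RefSeq start, whose windows, not printed, held 1 NFAT core match for *Slc17a6*, 1 for *Prok1* and 0 for *Muc13*, which held 1 of AP-1. Of 32851 such windows over all genes, 55.6% held the NFAT core and 6.75% the AP-1 letters, so a match of the core is the common case. A match is a description of the letters and not of binding.

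In resting iTregs, *Muc13*, *Prok1* and *Gpr55* were on average at their highest of the 4 iTreg groups and *Gfra1* and *Slc17a6* near absence. After restimulation *Muc13* and *Prok1* were near absence, *Gpr55* was at its lowest iTreg level, and *Crabp2*, *Gfra1*, *Ntrk3* and *Slc17a6* were at their highest. Over all genes tested in the 12 iTreg libraries, 6.70% were called higher and 6.13% lower on restimulation (limma, adjusted p below 0.05 and absolute log2 fold change above 0.5). Restimulation with the ORAI inhibitor against restimulation alone gave 1.50% higher and 1.79% lower, and with CsA 1.57% higher and 1.35% lower. Since the 8 genes were selected on these comparisons, nothing is read from their number against these shares.

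*Crabp2* stood at 21.1, 20.2 and 12.9 normalized counts in resting iTregs and at 144, 149 and 172 after restimulation. With the ORAI inhibitor the libraries held 28.6, 30.8 and 23.7, and with CsA 26.6, 41.1 and 37.6. The restimulated libraries lay apart from all others, 8.58-fold above the resting mean, and those with either inhibitor lay between, all of them still above the resting libraries.

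*Gfra1* had a read in only 1 of the 3 resting iTreg libraries, the values being 0, 1.01 and 0. Restimulated libraries held 16.1, 17.9 and 13.6, a ratio to rest of 51.3 with a 95% counting interval of 8.76 to 2068. The interval covers counting error only and is not a test, since the genes were selected on such changes. The ORAI inhibitor left 3.06, 5.28 and 5.26 and CsA 11.2, 4.11 and 5.60, below every restimulated library and above every resting one. These are 47 reads over the 3 restimulated libraries, the lowest depth among the genes that were higher.

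*Ntrk3* differed least in proportion, from 257, 238 and 320 at rest to 504, 405 and 445 after restimulation, a ratio of means of 1.66. It stood at 308, 333 and 287 with the ORAI inhibitor and at 257, 261 and 253 with CsA. Both inhibitor groups overlapped the resting libraries and stayed below the restimulated ones.

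*Slc17a6* stood at 1.05, 2.02 and 3.79 at rest and at 23.2, 42.6 and 45.4 after restimulation, a ratio of 16.2. With the ORAI inhibitor it was at 11.2, 13.2 and 8.77, and with CsA at 17.4, 12.3 and 15.99. As with *Crabp2* and *Gfra1*, no inhibitor library reached down to the resting libraries or up to the restimulated ones.

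*Muc13* went the other way, from 103, 118 and 155 at rest to 4.03, 5.60 and 3.63 after restimulation, a mean 28.4-fold lower. It stood at 30.6, 18.5 and 29.8 with the ORAI inhibitor and at 37.8, 26.7 and 20.0 with CsA. All 6 inhibitor libraries lay above the restimulated libraries and below the resting ones.

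*Prok1* stood at 61.1, 52.5 and 64.5 at rest and at 2.01, 1.12 and 2.72 after restimulation, a mean 30.4-fold lower that rests on 6 reads in the lower group. The ORAI inhibitor gave 8.16, 12.3 and 11.4, and CsA gave 2.04, 4.11 and 7.996. The libraries with the ORAI inhibitor lay above those restimulated alone, whereas those with CsA overlapped them. *A630076J17Rik*, which shares exon bases with *Prok1* on the other strand, had at most 3.07 normalized counts in any library.

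*Gpr55* stood at 65.3, 110.0 and 99.4 at rest and at 35.3, 28.0 and 38.1 after restimulation, a mean 2.71-fold lower. With the ORAI inhibitor it was at 80.6, 71.3 and 59.7 and with CsA at 74.6, 90.3 and 57.6. Both inhibitor groups overlapped the resting libraries and lay above the restimulated ones.

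*Lad1* stood at 10.5, 7.06 and 9.11 at rest, at 17.1, 10.1 and 21.8 after restimulation, at 11.2, 7.92 and 20.2 with the ORAI inhibitor and at 18.4, 8.21 and 15.2 with CsA. The libraries of all 4 iTreg groups overlapped.

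**Figure D1:**
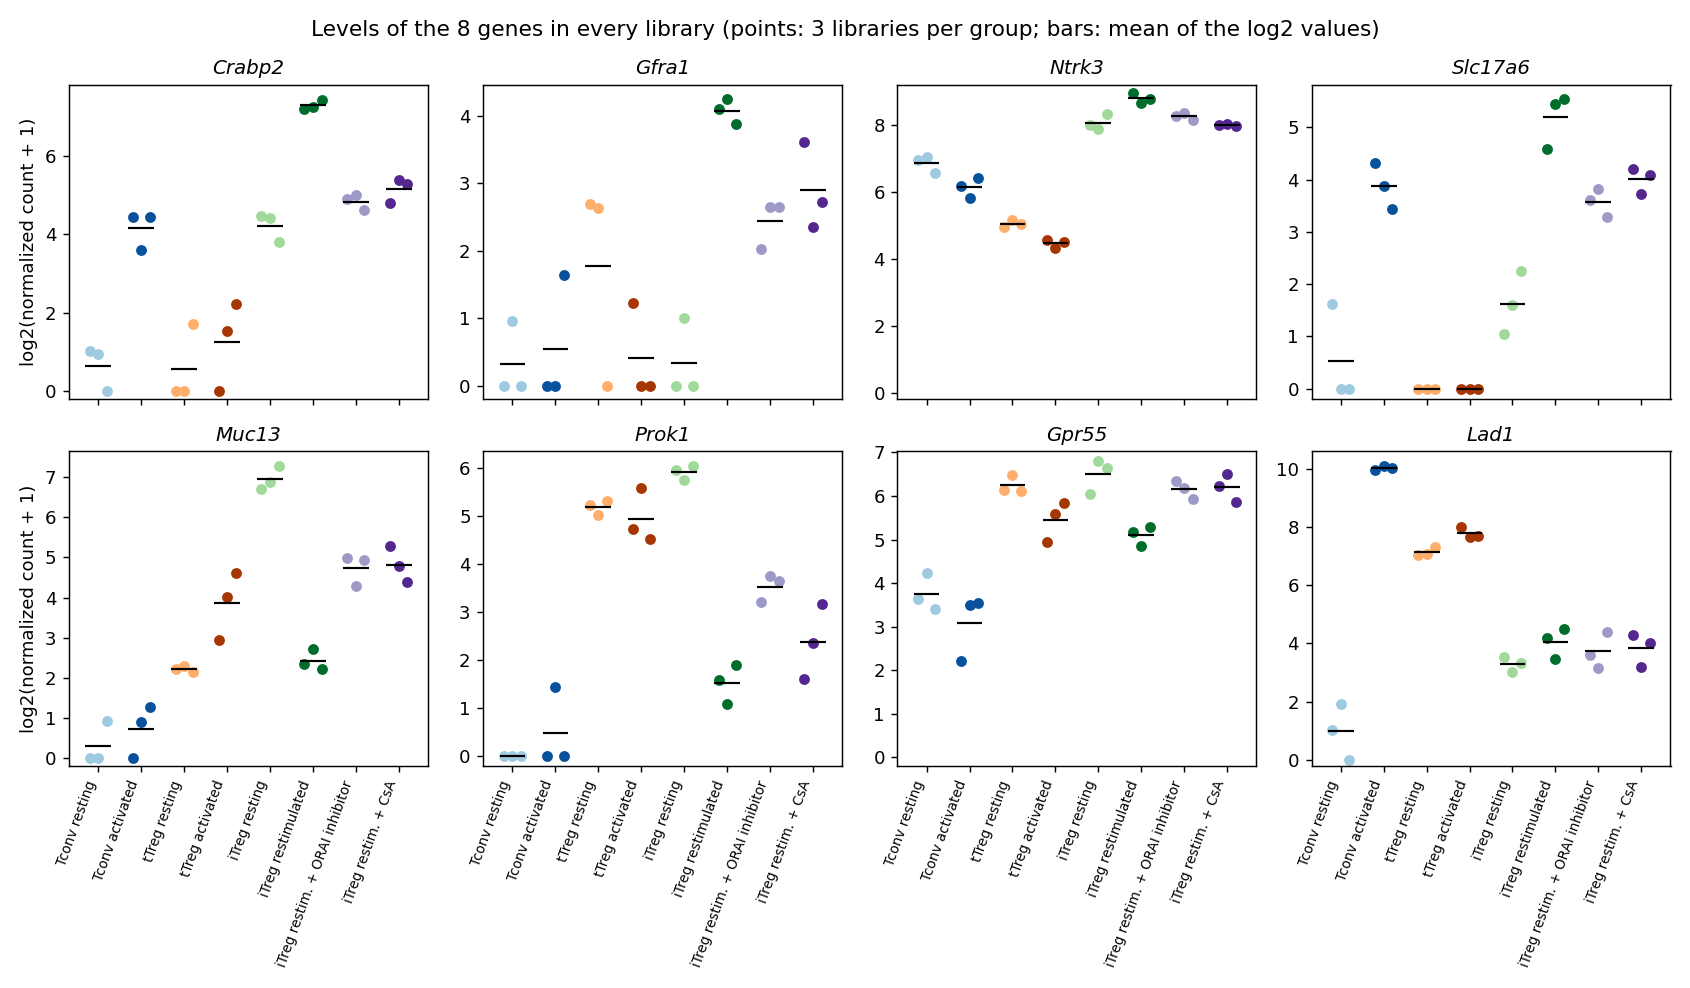
Level of each of the 8 genes in all 24 libraries, as log2 of the normalized count plus 1 on the vertical axis, with 3 libraries (points) and the mean of their log2 values (bar) per group on the horizontal axis. Crabp2, Gfra1 and Slc17a6 peak in restimulated iTregs, Muc13 and Prok1 in resting iTregs, and Lad1 in activated Tconvs, where its libraries sit between 989 and 1086 normalized counts.

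How much of the restimulation change was left under an inhibitor was expressed for the other 7 genes as a percentage of the log2 change from rest, where 0% is the resting and 100% the restimulated mean. For *Crabp2* 20.0% ± 6.1 (SD, n = 3) was left with the ORAI inhibitor and 30.3% ± 10.5 with CsA, and for *Gpr55* 25.1% ± 15.5 and 20.9% ± 23.2. About equal shares were left for *Muc13*, at 49.0% ± 8.7 and 47.2% ± 9.8. *Slc17a6* kept 54.6% ± 7.6 and 66.7% ± 6.8, and *Gfra1* 56.4% ± 9.7 and 68.6% ± 17.4.

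*Prok1* and *Ntrk3* were the genes whose shares under the 2 inhibitors lay farthest apart on the log2 scale, an order that does not hold on the linear scale for *Prok1*. *Prok1* kept 54.5% ± 6.5 with the ORAI inhibitor and 80.6% ± 17.8 with CsA, and the highest library with the ORAI inhibitor, at 61.9%, lay just below the lowest with CsA, at 62.5%. *Ntrk3* kept 26.5% ± 14.5 with the ORAI inhibitor and -9.70% ± 3.05 with CsA, that is, a level slightly past that at rest. Without the resting iTreg replicate 3, the highest resting library, the *Ntrk3* share with CsA was 6.10%. On the linear scale the shares of the low genes differ, with 27.0% and 42.7% left for *Gfra1* and 84.9% and 95.2% for *Prok1* with the ORAI inhibitor and CsA. The doses of both inhibitors are not given in the sources used here, and both comparisons share the resting and restimulated libraries, so the shares stand side by side without a ranking of the compounds.

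**Figure D2:**
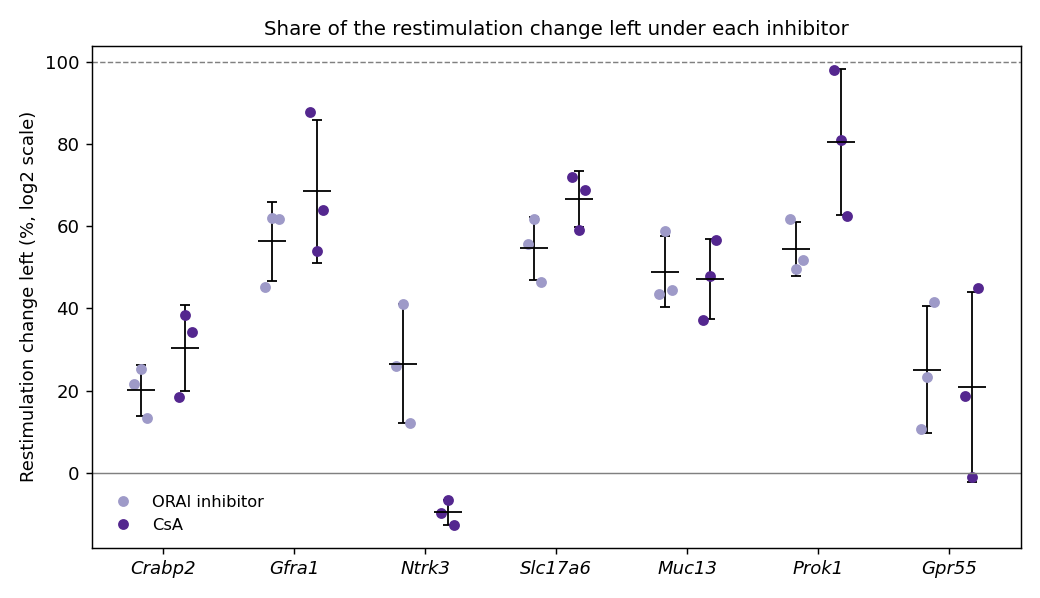
Percentage of the log2 change on restimulation that was left in each library with the ORAI inhibitor or CsA (vertical axis), for the 7 genes other than Lad1 (horizontal axis); points are libraries, bars the mean and SD of 3. Crabp2 and Gpr55 sit nearest to rest (0%) with the ORAI inhibitor, and Ntrk3 sits at -9.70% with CsA.

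The Tconv and tTreg libraries answer whether the same genes respond to activation in cells that were not used to select them, and whether they differ between the cell types. Of the 8 genes, 5 reached 10 normalized counts in 3 or more of the 12 libraries and were tested. *Gfra1*, *Slc17a6* and *Muc13* did not. *Crabp2* passed this filter only through activated Tconvs, and *Prok1* only through tTregs, so that the filter itself made them differ from the groups where they were near absence. For those comparisons the adjusted p is given from the fit without a filter, and their calls are not read as support.

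On activation of Tconvs, *Crabp2* rose from 1.03, 0.938 and 0 to 20.7, 11.2 and 20.5 normalized counts, a log2 change of 3.50 ± 0.69 (SE; adjusted p = 0.000358 without the filter, limma). The ratio of 28.0 has a 95% counting interval of 7.45 to 236, since the resting libraries held 2 reads. *Ntrk3*, which was higher in restimulated than in resting iTregs, fell on activation of Tconvs from 124, 131 and 93.9 to 71.8, 55.2 and 85.6, a log2 change of -0.72 ± 0.20 (adjusted p = 0.00757). Over all genes tested, 24.4% were called higher and 26.2% lower in this comparison, so that the 1 higher and 1 lower of 4 tested genes are close to the background, and the 1 higher is *Crabp2*.

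*Slc17a6*, below the filter, stood at 2.06, 0 and 0 in resting and at 18.9, 13.8 and 9.91 in activated Tconvs. The libraries did not overlap, and the ratio was 22.0 (counting interval 5.78 to 186). Without the filter it was called at a log2 of 3.34 (adjusted p = 2.35e-05, limma), and also with DESeq2 (4.50, adjusted p = 0.00476). *Prok1* was not called, at 0 in every resting library and at 0, 1.72 and 0 after activation. *Gpr55* was not called, at 11.3, 17.8 and 9.65 against 3.59, 10.3 and 10.6. *Lad1* is given as a description, at 1.03, 2.81 and 0 in resting and at 989, 1086 and 1044 in activated Tconvs. *Gfra1* and *Muc13* had at most 3 reads in either Tconv group.

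On activation of tTregs, *Ntrk3* was the 1 gene called of the 4 tested. It fell from 29.9, 35.03 and 31.9 to 22.9, 18.9 and 21.8, a log2 change of -0.59 ± 0.20 (adjusted p = 0.0406, limma), against a background of 11.4% of genes called higher and 10.2% lower. This call was lost when any 1 of 9 of the 12 libraries was left out, among them each tTreg library, with log2 changes from -0.64 to -0.51 over all libraries left out. The 3 whose removal kept it were resting Tconv replicate 3 and activated Tconv replicates 2 and 3. It was also lost with edgeR and DESeq2 on the reads and, at an adjusted p of 0.0747, without the filter on low genes.

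*Crabp2* in tTregs stood at 0, 0 and 2.28 at rest and at 0, 1.89 and 3.63 after activation, and was not called. *Prok1* was at 36.3, 31.1 and 38.7 and then at 25.6, 46.4 and 21.8, and *Gpr55* at 69.8, 88.2 and 68.3 and then at 29.6, 47.3 and 56.3, neither of them called. *Gpr55* libraries did not overlap, with a log2 change of -0.79 ± 0.38 (adjusted p = 0.125).

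*Muc13*, below the filter, stood at 3.63, 3.89 and 3.42 in resting and at 6.73, 15.1 and 23.6 in activated tTregs, without overlap. In the fit without the filter it was called at a log2 of 1.65 (adjusted p = 0.0248, limma), but not with DESeq2 (adjusted p = 0.0637). *Slc17a6* had 0 reads in all 6 tTreg libraries. *Gfra1* stood at 5.44, 5.19 and 0 at rest and at 1.35, 0 and 0 after activation, on 10 and 1 reads. *Lad1* stood at 132, 132 and 157 and then at 257, 202 and 203.

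The difference between the responses of Tconvs and tTregs, tested as an interaction, was called for *Crabp2* at a log2 of 2.82 ± 0.98 (adjusted p = 0.0277 without the filter, limma), with 16.7% of all genes called higher and 17.7% lower. It rests on few reads and on the activated Tconvs through which *Crabp2* passed the filter. It was lost when any 1 of 5 libraries was left out, with log2 values from 2.20 to 3.30 over all libraries left out, when a pseudocount of 0.1 was used, and with edgeR and DESeq2. The 5 are the 3 resting Tconv libraries, resting tTreg replicate 3 and activated tTreg replicate 1. Without any 1 of the 3 activated Tconv libraries *Crabp2* no longer passed the filter. *Ntrk3*, *Prok1* and *Gpr55* were not called, with differences of -0.13 ± 0.28, 0.73 ± 0.64 and 0.11 ± 0.53. *Slc17a6*, below the filter, was called too in the fit without it, at 3.34 (adjusted p = 0.00109, limma). It had 0 reads in both tTreg groups and was not called with DESeq2 (adjusted p = 0.178).

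Resting tTregs against resting Tconvs had 3 of 5 tested genes higher and 1 lower, where 20.4% of all genes were higher and 18.2% lower. *Prok1*, tested only through its tTreg libraries, was higher in tTregs by a log2 of 5.18 ± 0.46 (adjusted p = 8.34e-07 without the filter, limma), at 36.3, 31.1 and 38.7 against 0 in every Tconv library, at least 37.5-fold when 3 reads over the group are taken as the floor. *Gpr55* was higher by 2.49 ± 0.38 (adjusted p = 0.000134 with the filter), a mean 5.84-fold. *Lad1* was higher by 6.15 ± 0.35 (adjusted p = 1.78e-08, limma). Its known rise in activated Tconvs starts from the same resting Tconv libraries, so this call is not read as support. *Ntrk3* was lower by a log2 of -1.81 ± 0.20 (adjusted p = 9.43e-06, limma).

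After activation *Gpr55* was higher in tTregs by a log2 of 2.38 ± 0.38 (adjusted p = 0.000151, limma) and *Ntrk3* was lower, at -1.68 ± 0.20 (adjusted p = 1.47e-05). Over all genes 25.5% were higher and 22.6% lower. *Prok1* and *Crabp2* also differed, but passed the filter only through 1 side of this comparison. *Prok1* was higher by 4.45 ± 0.46 and *Crabp2* lower, at -2.91 ± 0.69 (adjusted p = 3.1e-06 and 0.00158 without the filter, limma). *Lad1*, higher in tTregs at rest, stood at 257, 202 and 203 in activated tTregs and at 989, 1086 and 1044 in activated Tconvs, a log2 difference of -2.24 ± 0.35 that is given as a description, since the level in activated Tconvs was known from earlier results.

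Of the genes below the filter, *Slc17a6* was at least 11.1-fold higher in activated Tconvs than in activated tTregs. Without the filter both were called by limma, *Slc17a6* at a log2 of -3.88 and *Muc13* at 3.14. *Muc13* was 17.8 times as high in activated tTregs as in activated Tconvs, with a counting interval of 5.59 to 90.5. *Gfra1* had 3 reads in activated Tconvs and 1 in activated tTregs, and no ratio is given.

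**Figure D3:**
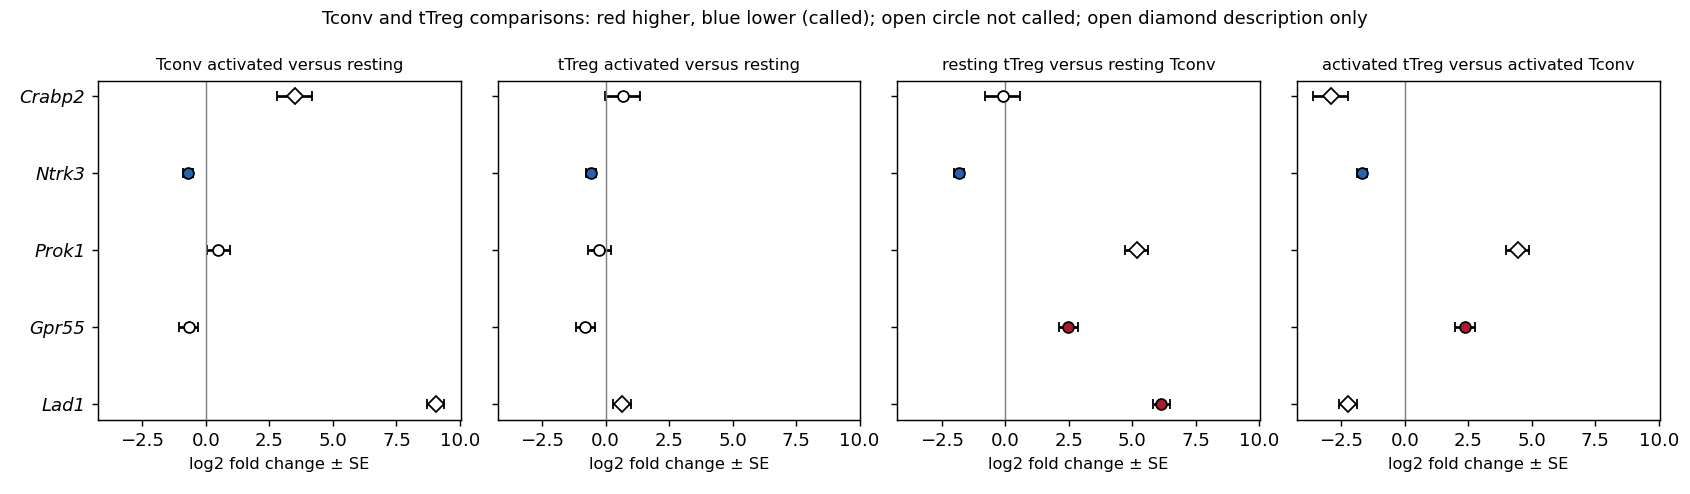
Log2 fold change with SE (horizontal axis, shared scale) of the 5 tested genes (vertical axis) in the 4 comparisons of Tconvs and tTregs with 3 libraries per group; red is called higher, blue called lower, an open circle not called, and an open diamond a description (Lad1 with activated Tconvs or on activation, and Crabp2 and Prok1 where the filter let them in through 1 side only). Gpr55 is called higher and Ntrk3 lower in tTregs at rest and after activation, and Lad1 goes from 6.15 at rest to -2.24 after activation. The call of Lad1 at rest is not read as support.

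Resting iTregs, set beside the other resting cells, held *Muc13*, *Prok1*, *Ntrk3* and *Crabp2* at higher levels than either. *Muc13*, at 125 ± 26.5 normalized counts, was 34.4-fold above resting tTregs, and *Prok1*, at 59.4 ± 6.2, was 1.68-fold above them. *Ntrk3* was 2.33-fold above resting Tconvs and 8.42-fold above resting tTregs, without overlap. *Lad1*, at 8.90 ± 1.75, was 6.95-fold above resting Tconvs and 15.8-fold below resting tTregs. *Gpr55* was 7.08-fold above resting Tconvs and overlapped resting tTregs. These are ratios of means, without a test.

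The order of levels over the 8 groups sets the genes apart. *Crabp2*, *Gfra1*, *Ntrk3* and *Slc17a6* were highest in restimulated iTregs, whose libraries did not overlap those of the next group in order. *Ntrk3* was higher in each of the 4 iTreg groups (257 to 451 on average) than in Tconvs (117 at rest) and lowest in activated tTregs (21.2). Resting iTregs and activated Tconvs had overlapping levels of *Crabp2*, with means of 18.1 and 17.5. *Slc17a6* in activated Tconvs overlapped both inhibitor groups.

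*Muc13* and *Prok1* were highest in resting iTregs, apart from the next group, whereas *Gpr55* in resting iTregs (91.6 ± 23.3) overlapped resting tTregs (75.5 ± 11.1). Restimulated iTregs had *Muc13* at 4.42 ± 1.04, overlapping resting tTregs at 3.65 ± 0.24. Their *Prok1*, at 1.95 ± 0.80, overlapped activated Tconvs at 0.575 ± 0.996.

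Per kb of exon, with lengths from the same annotation, *Muc13* led the 8 genes in resting iTregs, at 41.3 normalized counts per kb. In restimulated iTregs *Crabp2* led, at 117 per kb, followed by *Ntrk3* at 15.0 per kb. The exon length of *Ntrk3*, at 30170 bases, adds all its transcript models and lowers its value per kb. 

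Of the partners through which these proteins are known to act, the ligands and the prokineticin receptors were at or near absence, while retinoic acid receptors were not. *Gdnf* and *Ntf3*, the ligands of *Gfra1* and *Ntrk3*, had 0 reads in all 24 libraries. *Ret* stood at 8.42 ± 2.90 normalized counts in resting Tconvs and at 0.336 ± 0.582 in restimulated iTregs, where *Gfra1* was highest. *Ncam1*, another partner of *Gfra1*, named after its values were seen, stood at 10.6 ± 4.2 in resting and 9.84 ± 7.12 in restimulated iTregs and at 0 in all Tconv and tTreg libraries. *Prokr1* had at most 3 reads in any group and *Prokr2* 2 reads in resting tTregs alone.

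The retinoic acid receptor *Rara* was well expressed, at 439 ± 92.9 in resting and 410 ± 44.7 in restimulated iTregs, and was not called on restimulation. *Cyp26b1*, which breaks retinoic acid down, had at most 3 reads in any group. *Cnr2*, a cannabinoid receptor, fell on activation of Tconvs from 366 ± 7.87 to 143 ± 12.6 (log2 -1.35 ± 0.18, adjusted p = 3.52e-05, limma) and stood at 82.5 ± 34.0 in resting and 76.4 ± 16.2 in restimulated iTregs.

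Lists of the gene families hold 78 other genes, of which 26 were tested in iTregs. On restimulation 4 rose and 5 fell, where 6.70% of all genes rose and 6.13% fell. The median log2 change was -0.09 against -0.01 over all genes. The lists were chosen with earlier results known, so only the counts are given. Of the 9 tested retinoid genes 1 rose and 2 fell. *Stra6*, which takes up retinol, rose from 30.2 ± 7.90 to 122 ± 8.04 (log2 2.01 ± 0.19, adjusted p = 2.33e-06, limma), while *Rdh10*, an enzyme of retinoic acid synthesis, fell by 1.01 and the receptor gene *Rxra* by 0.90 on the log2 scale.

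*Stra6* and *Rxra* also passed the test under both inhibitors. *Stra6* was lower than in restimulated iTregs with the ORAI inhibitor (log2 -0.73 ± 0.19, adjusted p = 0.0307, limma) and with CsA (-0.91 ± 0.19, adjusted p = 0.00863). *Rxra* was higher with the ORAI inhibitor (1.01 ± 0.12, adjusted p = 0.000108) and with CsA (0.60 ± 0.12, adjusted p = 0.0066). The comparisons with either inhibitor share the restimulated libraries.

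In the other lists, restimulation lowered *Itga6*, a laminin receptor subunit of hemidesmosomes (log2 -1.50), *Sorcs2*, a receptor of the sortilin family (-1.54), and *Slc17a9*, a vesicular nucleotide transporter (-0.68). Among those it raised were *Mgll*, which breaks down monoacylglycerols (0.81), and *Gpr18*, a receptor for lipid mediators (0.77). With the ORAI inhibitor 3 of the 26 genes were higher (*Rxra*, *Ddhd1* and *Itga6*) and 1 lower (*Stra6*). Over all genes 1.50% were higher and 1.79% lower. With CsA 2 were higher (*Rxra* and *Slc17a9*) and 1 lower (*Stra6*), where 1.57% of all genes were higher and 1.35% lower. The 4 called with the ORAI inhibitor became 1 without restimulated replicate 2, and 2 without any other of the 6 libraries compared. The median log2 changes were 0.08 and 0.07, beside 0.01 and -0.003 over all genes. No gene of the GDNF, mucin and prokineticin lists passed the filter other than the genes described above.

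In Tconvs and tTregs 24 of the 78 genes were tested. Activation of Tconvs raised 3 and lowered 8, and activation of tTregs raised 2 and lowered 1. Over all genes 24.4% rose and 26.2% fell on activation of Tconvs, and 11.4% and 10.2% on that of tTregs, and the counts of the lists lie near or below the sum of these shares. *Fabp5*, another retinoic acid carrier, rose by a log2 of 3.35 ± 0.17 in Tconvs (adjusted p = 5.56e-09, limma) and by 0.92 ± 0.17 in tTregs (adjusted p = 0.00161). In iTregs it was not called on restimulation, at 1853 ± 136 normalized counts before and 1918 ± 62.3 after.

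In tTregs against Tconvs, 12 of the 24 were higher and 3 lower at rest, with a median log2 of 0.56 against -0.02 over all genes, and 15 were higher and 2 lower after activation (0.80 against 0.04). Of the 9 tested retinoid genes 6 were higher in tTregs at rest and 5 after activation, with 0 lower in either state, beside 20.4% and 25.5% of all genes higher. A list this short allows no more than the counts. *Dhrs3*, which reduces retinal, was higher by a log2 of 1.84 ± 0.26 and 3.27 ± 0.26 (adjusted p = 6.77e-05 and 4.27e-07, limma). *Aldh1a2*, which makes retinoic acid, stood at 7.89 ± 4.35 and 32.8 ± 5.45 in tTregs and at 0 in all Tconv libraries. It passed the filter only through tTregs, so the filter itself made it differ. Its part in the counts above is not read as support. Of the adhesion list, *Dst* was higher by 3.85 ± 0.16 at rest (adjusted p = 1.03e-09, limma).

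Epithelial and neuronal markers were measured because several of the genes are known from such cells. Of 5 epithelial markers, *Krt8* and *Krt5* had 0 reads in all libraries. The summed level of the 5 ranged from 14.1 to 23.7 in resting Tconvs, 173 to 233 in activated Tconvs, 79.7 to 128 in resting iTregs and 71.7 to 81.8 in restimulated iTregs, and *Epcam* made up most of it. Of 5 neuronal or glial markers, *Snap25* had 0 reads in 7 of the 8 groups, and the sum ranged from 26.6 to 39.3 in resting and from 11.1 to 16.8 in restimulated iTregs. Of 4 neutrophil markers *S100a8*, *S100a9* and *Elane* had 0 reads in all libraries, and *Ly6g* stood at 9.41, 64.8, 94.5 and 119 on average in resting iTregs, restimulated iTregs and those with the ORAI inhibitor and CsA. The part of these markers in the results was not tested.

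The genes whose group means followed those of the 8 most closely are given by Pearson's r over 8 groups, among 4043 genes, as a description. For *Crabp2* they were *Scml2* (r = 0.98) and *Reep2* (0.97), for *Gfra1* *Thbs3* and *Cysltr2* (0.91 each), for *Ntrk3* *Sema4f* (0.99) and *Zfp473* (0.98), and for *Slc17a6* *Ccl9* (0.96) and *Abi3* (0.95). For *Muc13* they were *Itgb5* (0.94) and *Crip1* (0.93), for *Prok1* *Cym* (0.98) and *Rassf4* (0.95), for *Gpr55* *Dennd5a* (0.97) and *Atcay* (0.96), and for *Lad1* *Stat5a* and *Mxd1* (0.96 each). Among the 8 themselves, *Crabp2* and *Slc17a6* were most alike (0.94), and *Muc13* and *Gpr55* followed (0.83). All points share libraries and size factors.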

How the data were processed

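RNA-seq of 24 libraries, 3 in each of 8 groups taken from the sample labels, was analysed. The 16 chromatin samples of the series were not analysed here. The authors trimmed reads with cutadapt 1.18, aligned them to mm10 with STAR 2.5.3 and counted them on GENCODE genes with RSEM 1.3.0. The deposited values are a signal, gene counts divided by 1 size factor per library, and 100% of them were whole multiples of the smallest value above 0 of their library (tolerance 1e-06), from which reads were recovered. The libraries were made by a SMART-seq2 protocol without strand information. Replicates differed by 2.69 to 36.3 times the counting variance, so none was a copy. The range was 12.7 to 36.3 within tTreg groups, 3.01 to 9.35 within Tconv groups and 2.69 to 16.4 within iTreg groups. The Tconv and tTreg libraries were fitted with a shared spread, so the SE and p-values do not reflect the larger spread of tTregs separately.

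Tested were the genes that reached 10 normalized counts in 3 or more libraries of a fit, 11173 in 12 Tconv and tTreg libraries and 11105 in 12 iTreg libraries. After a pseudocount of 1, log2 values were fitted by limma 3.58.1 (R 4.3.3) with a variance trend and group means. Adjusted p-values are Benjamini-Hochberg values over all genes tested, and calls needed an adjusted p under 0.05 with a log2 fold change past 0.5 in either direction, the thresholds that the authors used with DESeq2 1.26. Fold changes on this scale understate those of low genes. Alternatives included edgeR 4.0.16 and DESeq2 1.42.0 on the recovered reads of the Tconv and tTreg libraries. The fitting script was tested on simulated reads. Counting intervals are 95% and, like floors, cover counting error only.

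The 8 genes, the family and marker lists and the comparisons were chosen with earlier results of these data known. Named besides the 8 genes are fixed partners, at most the 3 family genes with the largest called change per list and comparison, and the 2 genes most alike in group means. The values of 1 family gene are not reported here. *Cd3e* and the other markers are named from their lists, and *A630076J17Rik* was named after its values were seen.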

Additional observations from a re-analysis of the deposited data

Results flagged for a closer look

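*Crabp2* differed between Tconvs and tTregs in its response to activation by 2.82 on the log2 scale, in the test of the interaction. It stood at 17.5 ± 5.41 and 0.655 ± 0.569 normalized counts (SD, n = 3) in activated and resting Tconvs and at 1.84 ± 1.82 and 0.759 ± 1.32 in activated and resting tTregs. *Crabp2* passed the filter on low genes only through activated Tconvs, so the difference is not independent of the filter. The adjusted p was 0.0277 without the filter (limma), and the difference was not called with edgeR or DESeq2. *Slc17a6*, below the filter, was also called for this difference in the fit without it (log2 3.34, adjusted p = 0.00109, limma). It was not called with DESeq2 either.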

How the results depend on the processing

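Of the counts of genes called, those between tTregs and Tconvs changed least: 4 at rest and 5 after activation, 5 and 7 without a filter, with all 24 libraries or with DESeq2, and 1 and 1 with a filter of 100 normalized counts, which leaves out most of the genes. These counts include *Prok1* and *Lad1* at rest, and *Prok1*, *Crabp2* and *Lad1* after activation. Their calls are not read as support, so the steadiness of the counts is not either. On activation of Tconvs, 2 genes were called, 3 without a filter, rescaled, with quantile normalization, with all 24 libraries or with DESeq2, 1 with a log2 fold change above 1 and 0 with the filter of 100, which leaves 0 of them to test. On activation of tTregs 1 was called with limma, 0 with a log2 fold change above 1, with the filter of 100, with only the groups compared, with edgeR or with DESeq2 (2 of the genes tested had an unadjusted p below 0.05 in the last 3 of these), and 2 with all 24 libraries in the fit. The difference in response was called for 1 gene, for 0 with a pseudocount of 0.1, the filter of 100, edgeR or DESeq2 (0 at an unadjusted p below 0.05), and for 2 without a filter, rescaled, with quantile normalization or with all 24 libraries. Of the other family genes in iTregs, 9 were called on restimulation and 5 with a log2 fold change above 1. With the ORAI inhibitor 4 were called, 7 by the adjusted p alone, 1 with a log2 fold change above 1 and 2 without a filter. With CsA 3 were called, 5 by the adjusted p alone and 0 with a log2 fold change above 1. The causes of these shifts were not tested.

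With 1 library left out, counts ranged from 1 to 2 on activation of Tconvs (1 without any 1 activated Tconv library, when *Crabp2* is not tested), 0 to 1 on activation of tTregs, 0 to 1 for the difference in response, 4 to 4 at rest and 4 to 5 after activation between cell types, and, for family genes, 9 to 9 on restimulation, 1 to 4 with the ORAI inhibitor and 2 to 3 with CsA. The share of the *Ntrk3* change left with CsA turned from -9.70% to 6.10% without resting iTreg replicate 3, with a range of -24.9% to 6.10% over the libraries left out. On the linear scale the shares left with the ORAI inhibitor and CsA were 7.04% and 12.4% for *Crabp2*, 25.2% and 37.2% for *Slc17a6* and 81.9% and 80.4% for *Muc13*. Same-numbered libraries correlated between -0.45 and 0.16 in Tconvs and tTregs and between -0.04 and 0.30 in iTregs. Differently numbered Tconv and tTreg libraries reached 0.45, for resting tTreg replicate 3 with activated tTreg replicate 1. Of the iTreg libraries 10 of 12 were closest to their own number (2 of 12 in the others). Their mean correlation was 0.15 for the same number and -0.08 for different numbers. Whether the numbers pair the iTreg libraries was not settled, and the main fits and the shares left do not use them. The replicate block took the tTreg activation count from 1 to 0 (2 at an unadjusted p below 0.05) and moved no other count. Count models were not run for the iTreg comparisons.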
